A study of Mus musculus with 4 samples.

Results

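The genes described here were 10 cytosolic heat shock protein genes of muscle, taken by their symbols from a fixed list of names out of 23337 gene symbols in the RNA-seq data of mouse heart. They comprised 5 small heat shock proteins (*Cryab*, *Hspb1*, *Hspb6*, *Hspb7* and *Hspb8*) and 5 larger chaperones (*Hspa8*, *Hspa1a*, *Hspa1b*, *Hsp90aa1* and *Hsph1*). All 10 were found in every library. The study asked what becomes of the heart when cardiomyocytes lose PIMT, a coactivator-binding methyltransferase that caps small nuclear RNAs and whose gene symbol is *Tgs1*. All mice were C57BL6/J and carried PIMT alleles with loxP sites around exons 3 and 4. PIMT fl/fl mice, the controls, carried these alleles alone, and csPIMT-/- mice also carried a Cre transgene under the α-myosin heavy chain promoter, which acts in cardiomyocytes and leaves the gene intact in the other cells of the heart. Hearts were taken at 2 and at 6 months of age, without treatment. RNA of 5 hearts of male and female mice was pooled for each of the 4 groups and gave 1 library per group, so there were no replicates and no difference at 1 age has a replicate check.

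Heat shock proteins are molecular chaperones. The small ones are ATP-independent holdases that keep damaged proteins from aggregating, and in cardiomyocytes several of them sit at the Z-disc, on desmin, titin or filamin. The Hsp70 proteins fold and release their clients in cycles of ATP hydrolysis, driven by J proteins and reset by nucleotide exchange factors, and Hsp90 takes over later folding steps of kinases and receptors. Many of these genes are switched on by heat shock factors, which bind heat shock elements made of inverted GAA and TTC units.

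The 4 libraries held between 29823073 and 40705783 reads on genes. Values are the deposited normalized counts, in which 1 read is worth between 0.865 and 1.23 depending on the library. A ratio below is the normalized count of csPIMT-/- over that of PIMT fl/fl of the same age, with a 95% Clopper-Pearson interval that covers counting error only and neither the variation between mice nor that between pools. *Tgs1* itself had 580 and 816 normalized counts in PIMT fl/fl and 160 and 162 in csPIMT-/- hearts at 2 and 6 months. The direction of this difference matched the labels. The ratios of all genes followed GC content, the share of G and C in the longest transcript, and Spearman's rho over genes was 0.581 in the younger and 0.607 in the older hearts. Genes are not independent replicates, and the controls of both ages against each other gave -0.261. The ratios of the members and of most other genes named are therefore also given after a smooth trend on GC content was subtracted. Whether the trend is of technical or other origin was not tested. *Tgs1*, with a GC content of 41.9%, had ratios of 0.276 and 0.199 before and 0.599 and 0.493 after this subtraction. The libraries also differed in markers of other tissues. Summed over 5 atrial genes they held 40742 and 121253 normalized counts in PIMT fl/fl and 334131 and 349424 in csPIMT-/- at 2 and 6 months. Most of each sum was *Nppa*, with 38182 and 70659 in PIMT fl/fl and 201180 and 320296 in csPIMT-/-. The other atrial genes, *Myl7*, *Myl4*, *Sln* and *Bmp10*, were lower in csPIMT-/- than in PIMT fl/fl at 6 months, with ratios of 0.171 to 0.795. The csPIMT-/- library of 2 months held most of the lung and white fat markers. The 7 cardiomyocyte markers were present in all libraries, with sums between 1102630 and 1438714.

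The promoters of several members carried paired heat shock element units. The letters GAANNTTC and TTCNNGAA, each of which reads the same on both strands, were searched in the 250 bases before each RefSeq transcription start (GRCm38.p6). They occurred before at least 1 start of 14.5% of the genes with such a window, and in 12.8% of all 32851 windows. A window was at hand for 7 members, all but *Hspa8*, *Cryab* and *Hsp90aa1*, and 5 of them had a match. The stretches from 150 to 51 bases before the start of the genes with a match in that interval are shown 5′ to 3′ on the gene's strand, with the match in capitals, because they place the 2 inducible Hsp70 genes beside the 2 small heat shock protein genes that share the letters.

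Hspb1, chr5:135887769-135887868, plus strand: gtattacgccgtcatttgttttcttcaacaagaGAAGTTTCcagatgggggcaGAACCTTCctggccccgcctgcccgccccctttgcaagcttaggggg
Hspb6, chr7:30553151-30553250, plus strand: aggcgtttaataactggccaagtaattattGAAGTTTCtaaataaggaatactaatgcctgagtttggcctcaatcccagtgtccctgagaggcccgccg
Hspa1b, chr17:34959289-34959388, minus strand: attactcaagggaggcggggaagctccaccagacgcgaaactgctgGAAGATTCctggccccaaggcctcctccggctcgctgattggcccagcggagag
Hspa1a, chr17:34972207-34972306, minus strand: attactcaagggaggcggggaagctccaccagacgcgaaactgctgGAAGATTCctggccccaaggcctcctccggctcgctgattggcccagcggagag

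*Hspb1* had 2 matches, which 1.46% of all windows had, with first bases at -117 and -97 from the start. *Hspb6* had 1 at -120 before its second RefSeq start and none before its first. The stretches of *Hspa1a* and *Hspa1b* were identical, and their whole 250 bases agreed at 247 positions. *Hsph1* had a match at -33 of 1 RefSeq start, which is -54 of another. Neither motif was in the windows of *Hspb7* and *Hspb8*. The matches describe the sequence and show neither binding nor use.

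The 5 small heat shock protein genes were higher in csPIMT-/- than in PIMT fl/fl hearts at both ages, by 1.58- to 3.55-fold, while the larger chaperones went in different directions. At 2 months 4 of the 10 members had a ratio above 2 and 0 below 0.5, where 17.3% and 22.5% of 15152 genes compared were past these bounds. At 6 months 4 members were above 2 and 1, *Hsph1*, was below 0.5, where 16.9% and 24.9% of 15218 genes were. *Hspb1*, *Hspb8* and *Cryab* were above 2 at both ages, as were 7.73% of all genes compared, and no member was below 0.5 at both (16.0%). The median ratio of the members was 1.72 at 2 months and 1.87 at 6 months, beside 0.999 and 1.0 over all genes. For the small heat shock proteins it was 2.30 and 2.88, and for the larger chaperones 1.05 and 1.22. In 8 of the 10 members both csPIMT-/- libraries lay above both PIMT fl/fl libraries, as in 34.6% of all genes, in *Hsp90aa1* both lay below (35.1%), and in *Hsph1* the genotypes overlapped. After the GC trend was subtracted 0 members were past 2-fold in either direction at 2 months (26.4% of genes) and 3 at 6 months (27.3%), *Hspa8*, *Hspb1* and *Cryab*, all above 2.

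**Figure D1:**
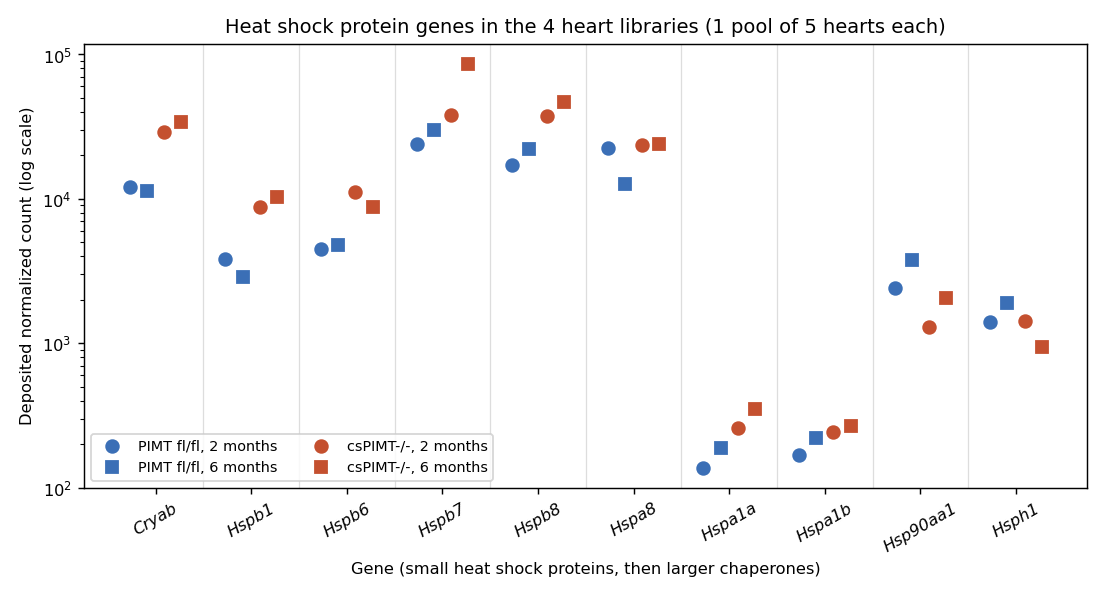
Deposited normalized counts (log scale) of the 10 genes in the 4 libraries, each point 1 pool of 5 hearts, with PIMT fl/fl in blue, csPIMT-/- in red, circles for 2 and squares for 6 months. Counts are not scaled to gene length and compare libraries within a gene; the red points lie above the blue ones in 8 genes and below them in *Hsp90aa1*.

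*Cryab*, on chromosome 9 (50751325 to 50756636, mm10/GRCm38), encodes αB-crystallin, a chaperone of desmin and titin. It had 12078 and 11286 normalized counts in PIMT fl/fl hearts at 2 and 6 months and 29192 and 33816 in csPIMT-/- hearts. The ratio was 2.42 (interval 2.37 to 2.47) at 2 months and 3.0 (2.94 to 3.06) at 6 months. The genotypes did not overlap, and the difference between them exceeded that between ages within either genotype. After GC trend subtraction the ratios were 1.68 and 2.03. None of its 50-base windows, the read length, occurs in another gene.

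*Cryab* overlaps its neighbour *Hspb2*, another small heat shock protein of muscle, by 1030 bases on the opposite strand. *Hspb2* had 3488 and 3593 normalized counts in PIMT fl/fl and 6701 and 8950 in csPIMT-/- hearts, ratios of 1.92 (1.84 to 2.00) and 2.49 (2.40 to 2.59). After trend subtraction these were 1.16 and 1.46. The library kit kept the strand, but whether the counting used it is not given in the sources used here, so reads in the overlap may not be told apart.

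*Hspb1*, on chromosome 5 (135887919 to 135889563), encodes the actin-binding small heat shock protein also called Hsp25 in mice. It had 3801 and 2885 normalized counts in PIMT fl/fl and 8749 and 10229 in csPIMT-/- hearts. The 2-month ratio was 2.30 (2.22 to 2.39) and the 6-month ratio 3.55 (3.41 to 3.69), the highest of the members at that age. The value was lower at 6 than at 2 months in PIMT fl/fl and higher in csPIMT-/-. *Hspb1* also had the highest GC content of the members, 61.7%, and its ratios after trend subtraction were 1.36 and 2.03. Of its 50-base windows 51.6% also occur in the processed pseudogene *Hsp25-ps1*, so its count is uncertain where such reads were dropped or shared.

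*Hspb6*, on chromosome 7 (30552178 to 30555443), encodes Hsp20, which protein kinase A phosphorylates. It had 4482 and 4772 normalized counts in PIMT fl/fl and 11084 and 8776 in csPIMT-/- hearts. The ratio was 2.47 (2.39 to 2.56) at 2 months, the highest of the members, and 1.84 (1.78 to 1.90) at 6 months. Among the small heat shock proteins it had the largest step down in the ratio from 2 to 6 months, and both csPIMT-/- libraries stayed above both PIMT fl/fl libraries. After trend subtraction the ratios were 1.67 and 1.22.

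*Hspb8*, on chromosome 5 (116408491 to 116422864), encodes the small heat shock protein that works with the co-chaperone BAG3 in selective autophagy of damaged proteins. It had 17192 and 22192 normalized counts in PIMT fl/fl and 37706 and 46550 in csPIMT-/- hearts. The ratios of 2.19 (2.15 to 2.23) and 2.10 (2.07 to 2.13) were close, though their counting intervals did not overlap, and both genotypes had more at 6 months. After trend subtraction they were 1.68 and 1.53.

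*Hspb7*, on chromosome 4 (141420779 to 141425311), encodes the cardiovascular small heat shock protein, a partner of filamin C at the thin filament. It had 24090 and 29739 normalized counts in PIMT fl/fl, 37997 in csPIMT-/- hearts of 2 months and 85649 in those of 6 months. The last library stood well above the other 3. The ratio was 1.58 (1.55 to 1.60) at 2 months and 2.88 (2.84 to 2.92) at 6 months. After trend subtraction these were 0.980 and 1.76, so the 2-month difference was no larger than that of genes of like GC content.

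*Hspa8*, on chromosome 9 (40800984 to 40810087), encodes Hsc70, the constitutive Hsp70 of the cytosol. It had 22470 and 12676 normalized counts in PIMT fl/fl at 2 and 6 months and 23631 and 23798 in csPIMT-/- hearts. The PIMT fl/fl library of 6 months stood apart from the other 3, which were alike. The ratio was 1.05 (1.03 to 1.07) at 2 months and 1.88 (1.84 to 1.92) at 6 months. With the control of the other age in its place, the 2-month ratio was 1.86 and the 6-month ratio 1.06, so the difference turned on which control was used. *Hspa8* is poor in GC for a member, at 45.9%, and after trend subtraction its ratios were 1.54 and 2.91. Of its 50-base windows 51.4% occur in other annotated genes, mostly processed pseudogenes.

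The heat-inducible Hsp70 genes *Hspa1a* and *Hspa1b* lie 9951 bases apart on the minus strand of chromosome 17 (34969190 to 34972156 and 34956436 to 34959238) and encode nearly the same protein. *Hspa1a* had 137 and 187 normalized counts in PIMT fl/fl and 256 and 350 in csPIMT-/- hearts, and ratios of 1.88 (1.52 to 2.32) and 1.87 (1.57 to 2.23). *Hspa1b* had 167 and 220 in PIMT fl/fl and 243 and 267 in csPIMT-/- hearts, and ratios of 1.45 (1.19 to 1.78) and 1.22 (1.02 to 1.45). Neither genotype overlapped the other in these genes, but they were the least covered members, with 158 to 336 reads. Reads of 60.3% of the windows of *Hspa1a* and 62.3% of those of *Hspa1b* fit more than 1 gene, mostly each other, so their sum is given too. The sum gave ratios of 1.64 (1.42 to 1.90) and 1.52 (1.34 to 1.71). Where reads of shared windows were dropped, they are missing from the sum as well, and no trend was subtracted from it. After trend subtraction *Hspa1a* was at 1.14 and 1.11 and *Hspa1b* at 0.892 and 0.734, so the direction of *Hspa1b* flipped.

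Beside them lies *Hspa1l*, an Hsp70 gene best known from testis, 546 bases from *Hspa1a* on the other strand. It had 222 and 207 normalized counts in PIMT fl/fl, 448 in csPIMT-/- hearts of 2 months and 1593 in those of 6 months. Its ratio was 2.02 (1.72 to 2.38) at 2 months and 7.71 (6.71 to 8.88) at 6 months. After trend subtraction it was 1.52 and 5.53.

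*Hsp90aa1*, on chromosome 12 (110690605 to 110702728), encodes the inducible Hsp90 of the cytosol. It had 2413 and 3756 normalized counts in PIMT fl/fl and 1291 and 2070 in csPIMT-/- hearts. The ratios were 0.535 (0.498 to 0.574) and 0.551 (0.522 to 0.581), the only ones of the 10 members below 1 at both ages. It has the lowest GC content of the members, 43.7%, and after trend subtraction its ratios were 0.972 and 1.14. Of its 50-base windows 58.5% occur in pseudogenes.

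*Hsph1*, on chromosome 5 (149614287 to 149636376), encodes Hsp105, an exchange factor of Hsp70. It had 1401 and 1905 normalized counts in PIMT fl/fl and 1415 and 936 in csPIMT-/- hearts. Its ratio was 1.01 (0.936 to 1.09) at 2 months, a difference within counting error, and 0.492 (0.454 to 0.531) at 6 months. After trend subtraction these were 1.30 and 0.638. No window of *Hsph1* is shared with another gene.

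**Figure D2:**
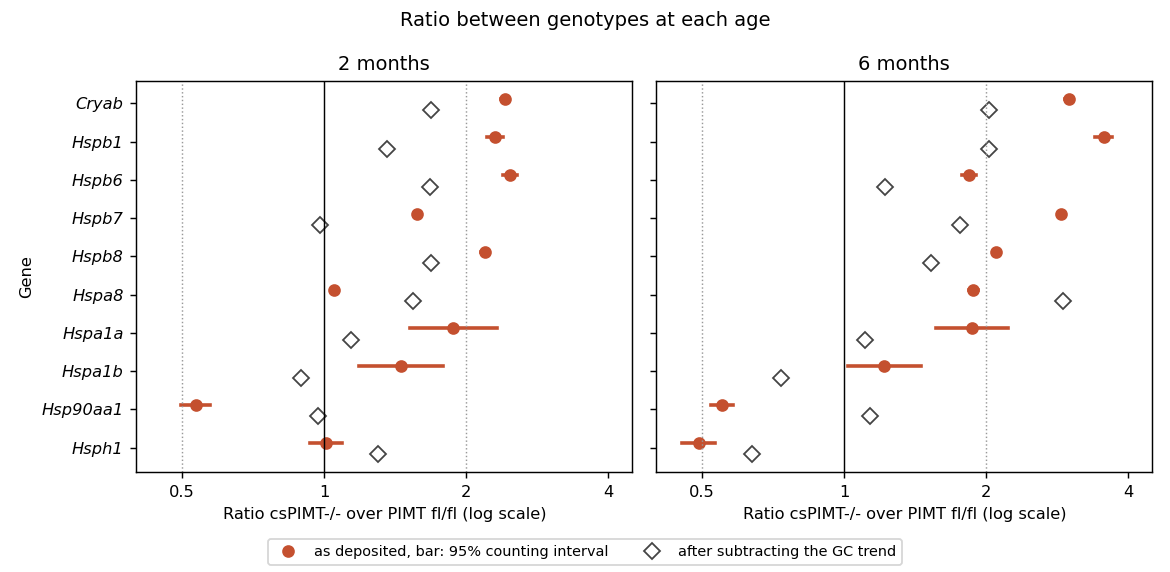
Ratio of csPIMT-/- over PIMT fl/fl (log scale) of the 10 genes at 2 months (left) and 6 months (right). Red points are the deposited values with 95% counting intervals, open diamonds the ratios after the GC trend was subtracted, and dotted lines mark 0.5 and 2; the 5 small heat shock proteins lie between 1.58 and 3.55 before and between 0.980 and 2.03 after subtraction.

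Per length, in reads per kilobase of exon at a common library size (RPKM), *Hspb8*, *Hspb7* and *Cryab* had the highest levels of the members in each library. In PIMT fl/fl hearts of 2 months they stood at 256, 252 and 237 RPKM, followed by *Hspa8* at 151, *Hspb1* at 107 and *Hspb6* at 56.5. *Hsp90aa1* had 17.8, *Hsph1* 5.59, and the inducible Hsp70 genes *Hspa1b* and *Hspa1a* had 1.73 and 1.34. In csPIMT-/- hearts of 6 months *Hspb7* came first at 822 RPKM, before *Hspb8* at 634 and *Cryab* at 608, and *Hspb1* at 264 stood above *Hspa8* at 147. No spread between replicates is known, so the order of neighbours such as *Hspb8* and *Hspb7* in the first of these libraries cannot be judged. *Hspa8*, *Hspb1*, *Hsp90aa1*, *Hspa1a* and *Hspa1b* share 51.4% to 62.3% of their 50-base windows with other genes. Reads of such windows may have been dropped, so the places of these genes in the order are also uncertain. The 5 small heat shock proteins together took 0.179% and 0.198% of reads in PIMT fl/fl and 0.339% and 0.492% in csPIMT-/- hearts. As normalized counts, their sum had a ratio of 2.02 at 2 months and 2.61 at 6 months. The sum of the 5 larger chaperones, most of it *Hspa8*, had ratios of 1.01 and 1.46. In pooled heart RNA more cells of a type and more RNA per cell cannot be told apart.

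The genotype was also tested over both ages with limma, on log2 values of all 4 libraries with age in the model. With genotype and age in the model the 4 libraries leave 1 residual degree of freedom, so the fit leans on the spread of all genes. That residual reflects how unlike the genotype differences of the younger and the older hearts were. It mixes a true change with age and differences between pools, which cannot be told apart without replicates. The SE and adjusted p-values of this fit therefore do not measure the spread between mice or between pools of 1 group. In this fit 5 of the 10 members rose and 1 fell, where 12.3% of 14878 genes rose and 18.6% fell. All 5 small heat shock proteins rose. The log2 difference was 1.51 ± 0.24 (SE) for *Hspb1* (adjusted p = 0.0117), 1.42 ± 0.23 for *Cryab* (adjusted p = 0.0128) and 1.09 ± 0.23 for *Hspb6* (adjusted p = 0.021). It was 1.09 ± 0.24 for *Hspb8* (adjusted p = 0.0242) and 1.09 ± 0.31 for *Hspb7* (adjusted p = 0.0448). *Hsp90aa1* fell, with a log2 difference of -0.89 ± 0.21 (adjusted p = 0.0287). *Hspa1a* (0.89), *Hspa8* (0.48), *Hspa1b* (0.40) and *Hsph1* (-0.51) did not pass the test, with adjusted p-values between 0.104 and 0.417.

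These calls depended on the fit. With all 4 libraries and no age term, limma called *Hspb1*, *Hspb6*, *Hspb8* and *Cryab*, but neither *Hspb7* (adjusted p = 0.0846) nor *Hsp90aa1* (adjusted p = 0.0799). With 1 library left out the age term could not be kept, so such fits held genotype alone, set 1 library against the other genotype's pair and assumed that the lone library varies like the others. Both changes act in them together. Without the PIMT fl/fl library of 6 months limma then called 0 members and 229 of 14499 genes (4519 with an unadjusted p under 0.05), without that of 2 months *Hspb1* and *Cryab* alone, and without the csPIMT-/- library of 6 months *Hspb1*, *Hspb6*, *Cryab* and *Hsp90aa1*. Without the csPIMT-/- library of 2 months, which held the most lung and fat markers, the 5 small heat shock proteins were called and *Hsp90aa1* had a log2 difference of -0.53 (adjusted p = 0.229). With the GC trend subtracted limma called 0 of 13498 genes, though 3489 had an unadjusted p under 0.05, and edgeR and DESeq2 without that subtraction called 4150 and 5170 of 14878. The log2 differences were then 0.90 for *Cryab*, 0.73 for *Hspb1*, 0.70 for *Hspb8*, 0.53 for *Hspb6* and 0.40 for *Hspb7*. *Hspa8* was then highest of the members, at 1.09 (adjusted p = 0.135), and *Hsp90aa1* was at 0.08.

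**Figure D3:**
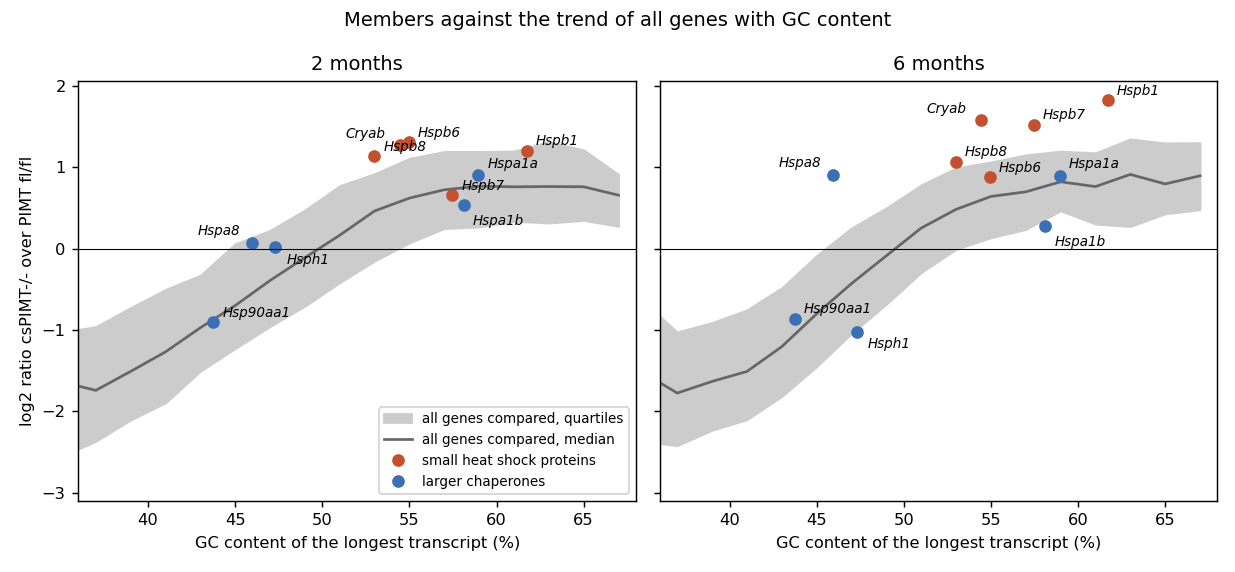
log2 ratio of csPIMT-/- over PIMT fl/fl against the GC content of the longest transcript (%), at 2 months (left) and 6 months (right). The line and band are the median and quartiles of all genes compared in bins of GC content, and points are the members, small heat shock proteins in red and larger chaperones in blue; 7 of the 10 members have more GC than the median of all genes, 48.6%.

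The members were thus placed unevenly along the GC trend. GC content was 53.0% to 61.7% in the small heat shock proteins, 58.9% and 58.1% in *Hspa1a* and *Hspa1b*, and 43.7% to 47.3% in the other 3. At 2 months the trend alone gave ratios of 1.30 at the GC content of *Hspb8* to 1.69 at that of *Hspb1*, and of 0.551 at that of *Hsp90aa1*. At 6 months it gave 1.37, 1.75 and 0.485 at the same places. The subtracted ratios of *Cryab*, *Hspb8* and the larger chaperone *Hspa8* stayed above 1.5 at both ages, and those of *Hsp90aa1* stayed between 0.972 and 1.14.

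With age, the members differed between the genotypes. In PIMT fl/fl hearts the ratio of 6 over 2 months was highest for *Hsp90aa1* (1.56, interval 1.48 to 1.63) and lowest for *Hspa8* (0.564, 0.553 to 0.576). In csPIMT-/- hearts it was highest for *Hspb7* (2.25, 2.22 to 2.28) and lowest for *Hsph1* (0.662, 0.606 to 0.722). *Hspb7* in csPIMT-/- hearts was the only member past 2-fold with age, where 9.71% of genes were above 2 and 8.20% below 0.5, and in PIMT fl/fl hearts no member was (9.01% and 4.65%). *Hsp90aa1* with 1.56 and 1.60, *Hspb8* with 1.29 and 1.23 and *Hspa1a* with 1.37 and 1.36 had like ratios in both genotypes. The pools of the 2 ages held different mice, so age and pool cannot be told apart.

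Markers of other tissues moved with the same libraries. The atrial genes *Myl7*, *Myl4*, *Sln* and *Bmp10* were highest in the csPIMT-/- library of 2 months. The PIMT fl/fl and then the csPIMT-/- library of 6 months followed. They were lowest in the PIMT fl/fl library of 2 months, at 5.19 for *Bmp10* to 1379 for *Myl4*, and this library is the control of every 2-month ratio. *Myl7*, a myosin light chain of atria, had 1045 and 17299 normalized counts in PIMT fl/fl and 42908 and 8084 in csPIMT-/- hearts, so its ratio was 41.0 at 2 months and 0.467 at 6 months. All 5 atrial genes were above 2 at 2 months, and at 6 months 1, *Nppa*, was above 2 and 3 were below 0.5. *Nppa*, which ventricles also make under load, had ratios of 5.27 and 4.53. The small heat shock proteins were higher in csPIMT-/- at both ages, and the part of atrial tissue in this was not tested. The 4 smooth muscle markers summed to 49912 and 35867 in PIMT fl/fl and 62287 and 27223 in csPIMT-/-, with 3 above 2 at 2 months and 0 at 6 months. The 5 lung markers summed to at most 17.7 outside the csPIMT-/- library of 2 months, where they reached 1160, and the 3 white fat markers to 3490 there and 8.65 to 804 elsewhere. The 5 fibroblast markers summed to between 134024 and 258525, with 3 above 2 at 6 months, and the 4 endothelial markers to between 34538 and 51240, with 1 below 0.5 at 2 months. Of the macrophage markers 3 were found, at 5736 and 15039 in PIMT fl/fl and 19711 and 25438 in csPIMT-/-, with 3 above 2 at 2 months and 1 at 6 months. Brown fat markers summed to 1899 and 1108 in PIMT fl/fl and 4356 and 2618 in csPIMT-/-, with 2 above 2 at 2 months. At 6 months 1 was above 2 and 1 below 0.5. Most of each sum was *Cidea*, at 1889 and 1015 in PIMT fl/fl and 2561 and 2600 in csPIMT-/-. *Ucp1* had 8.65 and 93.2 in PIMT fl/fl and 1766 and 12.5 in csPIMT-/-, ratios of 204 and 0.134. The 4 skeletal muscle markers summed to 295 and 77.4 in PIMT fl/fl and 150 and 320 in csPIMT-/-, with 1 below 0.5 at 2 months. All 4 were above 2 at 6 months, at 4.01 to 4.39, on few reads. These were 7 for *Mylpf* to 36 for *Myh4* in PIMT fl/fl, and 26 to 122 for the same genes in csPIMT-/-. Of the 4 blood markers the 3 globin genes were listed at 0 in all libraries, and *Alas2*, a heme enzyme of red cell precursors, had 3832 and 2855 in PIMT fl/fl and 2313 and 12283 in csPIMT-/-, ratios of 0.604 and 4.30. The part of these tissues in the ratios of the members was not tested.

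Other chaperone genes were read from 7 lists. Over these lists limma tested 58 genes and called 16 lower and 9 higher, where 18.6% and 12.3% of all genes were. Of all genes compared, 22.5% were below 0.5 and 17.3% above 2 at 2 months, and 24.9% and 16.9% at 6 months. At both ages 16.0% were below 0.5 and 7.73% above 2. The counts past 2-fold in the lists below stand beside these shares and were not tested against them. Of 8 J proteins, which deliver clients to Hsp70, 3 had a ratio below 0.5 at both ages and 0 above 2 at either, and limma called 3 lower and 1 higher. These 3 were *Dnaja1*, with 1263 and 1601 normalized counts in PIMT fl/fl and 292 and 332 in csPIMT-/- hearts (ratios 0.231 and 0.207), *Dnajb4* (0.363 and 0.326) and *Dnaja2* (0.358 and 0.343). After trend subtraction *Dnaja1* was at 0.538 and 0.546, *Dnajb4* at 0.782 and 0.804 and *Dnaja2* at 0.728 and 0.800. *Dnajb2*, the member of the list that rose, had a log2 difference of 0.89 in limma (adjusted p = 0.0267). Its ratios were 1.86 and 1.88, and after trend subtraction 1.16 and 1.15.

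Of 9 other Hsp70, Hsp110 and Hsp90 genes, 2 were below 0.5 and 1 above 2 at 2 months, 4 and 1 at 6 months, and limma called 3 lower and 1, *Hspa1l*, higher. *Hspa12a*, a distant Hsp70 relative, had ratios of 0.292 (0.259 to 0.328) and 0.309 (0.276 to 0.346), and of 0.311 and 0.318 after trend subtraction. *Hspa4*, an Hsp110 exchange factor like *Hsph1*, had ratios of 0.479 and 0.465, and of 0.657 and 0.659 after subtraction. *Hsp90ab1*, the constitutive Hsp90, had 30572 and 25461 normalized counts in PIMT fl/fl and 31267 and 24614 in csPIMT-/- hearts, ratios of 1.02 and 0.967, and of 0.928 and 0.828 after subtraction.

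Of 19 exchange factors and co-chaperones, 3 were below 0.5 and 2 above 2 at 2 months, 4 and 3 at 6 months, and limma called 3 lower and 5 higher. *Chordc1* (0.269 and 0.160), *Ptges3* (0.311 and 0.277) and *Ppid* (0.344 and 0.217), which assist Hsp90, were the genes lower past 2-fold at both ages, and *Hspbp1* (2.18 and 2.01), an exchange factor of Hsp70, was higher at both. After trend subtraction *Chordc1* was at 0.997 and 0.571, *Ptges3* at 0.594 and 0.605, *Ppid* at 0.776 and 0.556 and *Hspbp1* at 1.31 and 1.18. *Fkbp4*, the most covered gene of the list and a co-chaperone of Hsp90 at steroid receptors, had ratios of 1.23 and 0.820, and of 0.810 and 0.534 after subtraction. A further 3 were chosen after their values were seen. *Bag3*, the partner of *Hspb8*, had ratios of 1.42 (1.36 to 1.47) and 1.73 (1.66 to 1.80), *Stub1*, the ubiquitin ligase CHIP, of 2.09 and 1.96, and *Fkbp5*, a glucocorticoid-responsive immunophilin, of 1.5 (1.34 to 1.68) and 11.6 (10.7 to 12.5). After trend subtraction *Bag3* was at 0.912 and 1.10, so its direction at 2 months turned, *Stub1* at 1.24 and 1.14 and *Fkbp5* at 1.30 and 9.40.

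Of the 8 subunits of the chaperonin CCT, which folds actin and tubulin, 0 were past 2-fold at 2 months and 3 were below 0.5 at 6 months, and limma called 3 lower and 0 higher. *Cct7*, the most covered of them, had ratios of 1.51 and 1.65, and of 2.47 and 2.97 after trend subtraction. Of 6 chaperones of mitochondria and endoplasmic reticulum, 2 were below 0.5 at 2 months and 3 at 6 months, 0 were above 2, and limma called 3 lower. *Hspd1*, the mitochondrial Hsp60, had 8723 and 10142 normalized counts in PIMT fl/fl and 2076 and 1234 in csPIMT-/- hearts, ratios of 0.238 (0.226 to 0.251) and 0.122 (0.115 to 0.129). It remained at 0.319 and 0.167 after trend subtraction. *Hsp90b1*, the Hsp90 of the endoplasmic reticulum, had ratios of 0.292 and 0.216, and of 0.624 and 0.528 after subtraction. *Hspa9*, the mitochondrial Hsp70, had ratios of 0.595 and 0.369, and of 0.879 and 0.580 after subtraction.

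Of the 5 other small heat shock proteins, *Hspb2* was the only one called by limma (log2 difference 1.12, adjusted p = 0.0174). At 2 months 1 of 5 was above 2 and 1 below 0.5, *Hspb9* and *Cryaa*, named after their values were seen, with at most 14 reads in either library. At 6 months 2 of 4 were above 2, *Hspb2* and *Cryaa*. Of 4 heat shock factor genes, *Hsf4* had 78.7 and 124 normalized counts in PIMT fl/fl and 291 and 433 in csPIMT-/- hearts, ratios of 3.70 (2.89 to 4.76) and 3.49 (2.88 to 4.26), and *Hsf2* ratios of 0.310 and 0.356. After trend subtraction *Hsf4* was at 2.18 and 2.0 and *Hsf2* at 1.10 and 1.25. *Hsf1*, the main stress-activated factor, named here after its values were seen, had ratios of 1.5 (1.38 to 1.63) and 1.41 (1.31 to 1.53), and of 1.11 and 1.0 after subtraction. The binding protein of the factors, *Hsbp1*, had ratios of 0.892 and 0.782, and of 1.11 and 0.971 after subtraction.

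**Figure D4:**
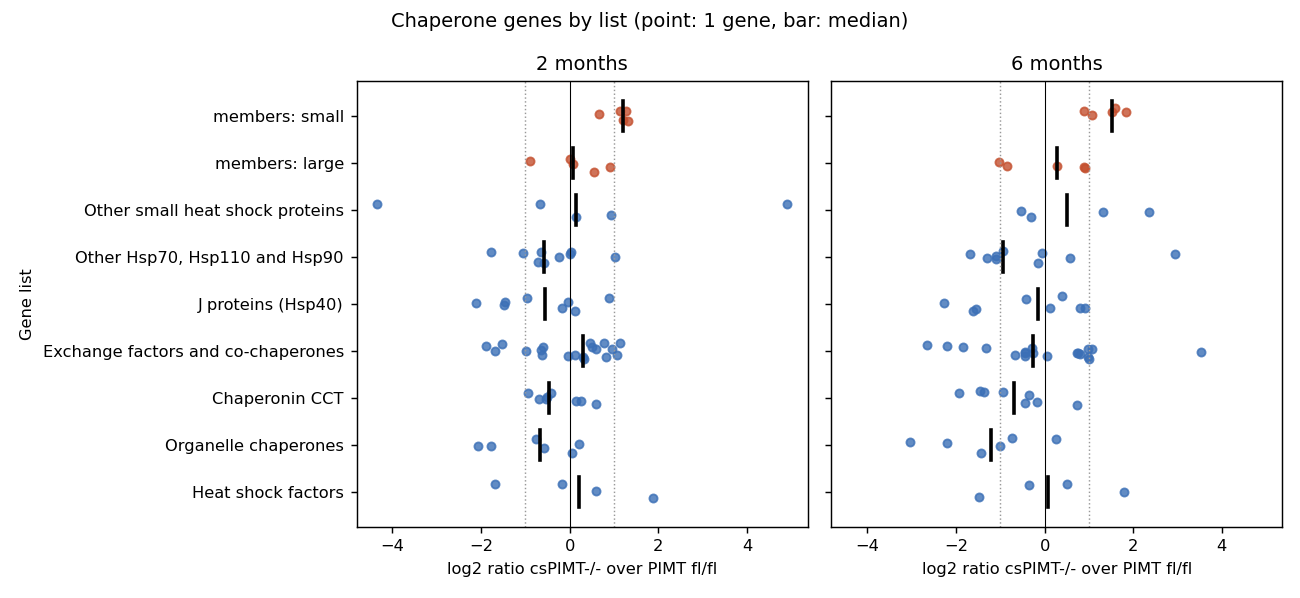
log2 ratio of csPIMT-/- over PIMT fl/fl of each compared gene of the chaperone lists, at 2 months (left) and 6 months (right), members in red. Black bars are medians and dotted lines mark 2-fold; the small heat shock protein members have a median ratio of 2.30 and 2.88, and the organelle chaperones one of 0.629 and 0.430.

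Among the members, *Hspb1* and *Cryab* had the most similar pattern over the 4 libraries, with a root mean square difference of centred log2 values of 0.115, followed by *Hspa1a* and *Hspb8* with 0.116. The least similar were *Hspb1* and *Hsp90aa1*, with 1.26. Among 6486 genes with a mean of at least 1000 reads, the nearest to *Cryab* were *Qsox1* (0.0292), *Lmna* and *Gnl1*. *Hspb1* was nearest to *Hn1* (0.0412), *Mtap1a* and *Adamtsl5*, *Hspb6* to *Csrp1* (0.0224), *Rrp9* and *Thop1*, and *Hspb8* to *Tbc1d22a* (0.0277), *Ypel3* and *Gsta4*. *Hspb7* was nearest to *Mocs1* (0.0434), *Klf15* and *Inf2*. *Mocs1* had 587 and 685 normalized counts in PIMT fl/fl and 942 and 2126 in csPIMT-/- hearts. *Klf15* had 1451 and 1702 in PIMT fl/fl and 2435 and 5207 in csPIMT-/- hearts, with the same step at 6 months. *Hspa8* was nearest to *Col6a1* (0.0239), *Ephb4* and *Srf*, *Hspa1a* to *Pla2g12a* (0.0254), *Pcolce2* and *Pbxip1*, and *Hspa1b* to *1810037I17Rik* (0.0221), *Prex1* and *Parp12*. *Hsp90aa1* was nearest to *Golgb1* (0.0205), *Ppm1b* and *Acyp2*, and *Hsph1* to *Hars2* (0.0253), *Per3* and *Lamb3*. With only 4 libraries, the likeness is a description of these pools.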

How the data were processed

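Oligo-dT-selected RNA (RIN above 7) was made into directional TruSeq libraries and sequenced as 50-base single reads. Per the study's methods and processing notes, the authors trimmed and filtered reads, removed ribosomal reads, aligned with STAR to mm10, ran HTSeq 0.6.1p1 on a UCSC annotation for counts per gene, and used DESeq2. The strand and multi-mapping settings of the counting and the version of DESeq2 are not given in the sources used here. They deposited 1 normalized count per symbol and library, a signal scaled by median-of-ratios size factors. In each library all values were whole multiples (tolerance 1e-06) of the smallest value above 0, and this gave back whole reads for 100% of values, between 29823073 and 40705783 per library. Where this report compares genotypes, groups came from the sample titles, with 1 library each. The study's test of single ages needs replicates, so ratios of the deposited values were given without p-values.

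The members and gene lists were chosen with earlier results of these data known. A gene was compared where either library had at least 10 reads. log2 ratios used 0.5 reads as pseudocount. The GC trend was a lowess curve (span 0.3) on the GC content of the longest transcript in GENCODE M21, which 89.8% of symbols matched. limma 3.58.1 (R 4.3.3) used TMM-scaled log2(reads + 1), genotype, age and a mean trend, on genes with at least 10 scaled reads in 2 libraries and 15 in total, with Benjamini-Hochberg adjustment and a threshold of 0.05. It had 1 residual and 4.88 prior degrees of freedom. It was also run on simulated counts without an age effect or a GC trend, which cannot show how its p-values hold in these data. The edgeR 4.0.16 quasi-likelihood test called 4150 genes on the recovered reads and DESeq2 1.42.0 called 5170. Other alternatives were TMM or total-read scaling, the other control or both, other read minimums and pseudocounts, no age term, no mean trend and leaving out each library, with genotype alone in the model. RPKM used the exon union length. Beside all members, *Tgs1* and 2 neighbours, the genes named from a list were up to 4 past 2-fold in the same direction at both ages with at least 100 reads in 1 library, by mean absolute log2 ratio, and the most covered gene. For each member the 3 genes of most similar pattern were named.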

Additional observations from a re-analysis of the deposited data

Results flagged for a closer look

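Among the members and the genes named by rule from the chaperone lists, 9 were flagged because the direction of a ratio differed between groups. With 1 library per group these differences were not tested. The ratio of 6 over 2 months was below 1 in PIMT fl/fl and above 1 in csPIMT-/- hearts for *Hspb1* (0.759 and 1.17) and *Cryab* (0.934 and 1.16). It was above 1 in PIMT fl/fl and below 1 in csPIMT-/- hearts for *Hspb6* (1.06 and 0.792), *Hsph1* (1.36 and 0.662), *Chordc1* (1.34 and 0.795), *Hspd1* (1.16 and 0.594) and *Hspa9* (1.12 and 0.693). The ratio of csPIMT-/- over PIMT fl/fl was above 1 at 2 months and below 1 at 6 months for *Hsp90ab1* (1.02 and 0.967) and *Fkbp4* (1.23 and 0.820). After the GC trend was subtracted these were 0.928 and 0.828 for *Hsp90ab1* and 0.810 and 0.534 for *Fkbp4*, below 1 at both ages. The ratio of 6 over 2 months of *Chordc1* was then 0.927 in PIMT fl/fl and 0.524 in csPIMT-/- hearts, also below 1 in both.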

How the results depend on the processing

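With 1 pool per group, no ratio at 1 age has an error beyond counting, and pools, ages and libraries cannot be told apart. The members' median log2 ratio was 0.78 at 2 months and 0.90 at 6 months. It was 0.41 and 0.45 with the GC trend subtracted, 0.61 and 1.16 with the control of the other age and 0.58 and 1.02 with both controls summed. Members above 2 at 2 months numbered 4, and 0 with the GC trend subtracted. Members below 0.5 numbered 0 at 2 months and 1 with the other control or both, and at 6 months 1 and then 0 under these 2 settings and the GC trend. Scaling by TMM, by total reads or by the median of ratios of the 2 libraries compared, the last chosen after seeing the data, gave between 3 and 4 members above 2. Genes below 0.5 numbered 3405 and 3794, and 1571 and 1798 with the GC trend subtracted, and genes above 2 at 2 months 2616, and 1724 with at least 100 reads. In limma 2774 genes were lower and 1826 higher. Both were 0 without the mean trend (5951 genes with an unadjusted p under 0.05) and with the GC trend subtracted (3489). Leaving out 1 library, which also takes the age term out of the model, gave between 83 and 2522 lower and between 146 and 1606 higher genes. Members lower numbered 1, and 0 without the mean trend, with the GC trend subtracted and without the age term, and between 0 and 1 with 1 library left out. Members higher numbered 5, and 0 without the mean trend and with the GC trend subtracted, and between 0 and 5 with 1 library left out. With the GC trend subtracted the log2 difference of *Hspa1b* turned to -0.30 (adjusted p = 0.57) and that of *Hsp90aa1* to 0.081 (adjusted p = 0.82). *Hspb7* was also lost with median-of-ratios size factors (adjusted p = 0.0513) and without the age term (0.0846). The cause of these changes was not tested, save that the GC setting tests fewer genes. No pairing of replicates was possible because each group had 1 library.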
